A study of Ovis aries with 16 samples.

Results

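The miR-30 family in the testis of sexually mature sheep was described here through its 5 listed members, oar-miR-30d, oar-miR-30a-5p, oar-miR-30c, oar-miR-30b and oar-miR-30a-3p, in the order of their mean levels. The members were all entries whose name starts with oar-miR-30 and a letter, and they are 5 of the 271 miRNAs listed, of which 103 are known sheep miRNAs and 168 were predicted by the authors. Testicular small RNAs were sequenced in 16 Merino males, 8 on each diet, and every male gave 1 library. The males were 24 months old at entry, were kept in individual pens and had 3 weeks of acclimatization, after which the feed of each male was adjusted weekly for a change in body mass of 10% (well-fed) or -10% (underfed) over 65 days. Total RNA came from whole testis tissue, which holds germ cells, Sertoli cells, Leydig cells, vessels and blood. In such bulk tissue, fewer cells of a type and less RNA per cell cannot be told apart.

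A miRNA is cut from a hairpin precursor, and the strand loaded into an Argonaute protein guides it to messenger RNAs that pair with the seed, a short stretch near the 5′ end of the miRNA. The 5p strands of the miR-30 family share 1 seed and therefore much of their predicted targets, whereas miR-30a-3p comes from the opposite arm of the miR-30a hairpin and has another seed. The family is abundant in many tissues and is known for limiting autophagy, through the autophagy gene BECN1, and for effects on differentiation and lipid metabolism. The comparison between diets asked whether a nutritional change that alters testis mass and sperm production is accompanied by a change in these miRNAs.

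The sheep genes of the members lie in different surroundings. In the RefSeq annotation of the assembly ARS-UI_Ramb_v3.0, MIR30D and MIR30B are direct neighbours. MIR30C overlaps NFYC, which encodes a subunit of the transcription factor NF-Y. MIR30A overlaps the uncharacterized gene LOC114116445. A single MIR30A gene gives rise to both arms listed here. The deposited values were made on another assembly, so this annotation was used for names and neighbours only.

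Levels are given as CPM, the number of reads of a miRNA per 1000000 miRNA reads of its library. The number of miRNA reads behind a library was 17163 to 503916 in well-fed (median 294247) and 27797 to 1058985 in underfed males (median 532446.5). It was under 100000 in 3 libraries, well-fed replicate 5 and underfed replicates 6 and 8. With 3 reads as the floor, the lowest level that could be shown was 2.83 to 174.79 CPM, for counting error only, since PCR reads are not independent molecules. All 5 members were read in all 16 libraries. The lowest number of reads behind a value was 208.5 for miR-30d, 120.5 for miR-30a-5p, 44 for miR-30c, 20 for miR-30b and 4 for miR-30a-3p, so that miR-30a-3p was the least precise member. Of the 80 member values, 23 ended in 0.5 reads, although the way reads matching several entries were divided is not given in the sources used here. These were 12 of 16 values of miR-30d, 6 of miR-30c and 5 of miR-30a-5p, and 0 of miR-30b and miR-30a-3p. The sequences of the 5p members resemble each other, so the levels of miR-30d, miR-30c and miR-30a-5p are uncertain to the extent that they share reads.

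miR-30d was the most abundant member. This miRNA shares its seed with the other 5p strands and its gene lies beside that of miR-30b. The lowest, median and highest levels were 9255, 13939 and 16673 CPM among well-fed males, against 5289, 7935 and 14479 CPM among underfed males. It ranked between 13 and 29 among the 271 miRNAs of a library. In 7 of 8 underfed males the level was below that of every well-fed male, and the exception was underfed replicate 1 with 14479 CPM. The diets therefore overlapped through a single male. Its library was like those of well-fed males in its scaling factor and piRNA reads, given below, but not in all measures. Its miR-30b level of 871.7 CPM was the lowest of the 16 males (lowest well-fed 1165 CPM). So was its ratio of the 5p to the 3p arm of miR-30a, at 13.5 (lowest well-fed 17). Well-fed males averaged 13766 ± 2475 CPM (SD, n = 8) and underfed males 8179 ± 2974 CPM (SD, n = 8), a ratio of 0.594, or 0.529 without underfed replicate 1. The CPM of the diets did not overlap at all, a stricter condition that miR-30d did not meet, for 5 of the 244 miRNAs tested (2.05%). The share of miRNAs with 7 of 8 underfed males below every well-fed male was not computed. On deposited CPM the median log2 fold change (underfed minus well-fed) over the 244 was itself -0.51.

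miR-30a-5p, the arm known to act on BECN1, was the next member. The lowest, median and highest levels were 6612, 8629 and 13140 CPM with the well-fed diet and 5405, 6682 and 11387 CPM with the underfed diet. The diets overlapped widely, with 4 of 8 underfed males below the lowest well-fed male and the highest underfed male above 7 of the 8 well-fed males. Means were 8936 ± 2039 CPM (SD, n = 8) and 7696 ± 2254 CPM (SD, n = 8), in that order.

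miR-30c, known in the liver for acting on the lipoprotein assembly gene MTTP, was at a lower level. Its lowest, median and highest levels were 2447, 3144 and 4177 CPM among well-fed males, and 1493, 2480 and 3725 CPM among underfed males. Its rank among the 271 miRNAs, 35 to 41, was the steadiest of the 5 members. The means were 3156 ± 635.8 CPM and 2561 ± 700.4 CPM (SD, n = 8 each), and 4 of 8 underfed males were below the lowest well-fed male.

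miR-30b, the genomic neighbour of miR-30d, spanned 1165 to 2905 CPM among well-fed males (median 1967) and 871.7 to 3214 CPM among underfed males (median 1313). The spread between underfed males was the widest of the family, with a coefficient of variation of 49.9% against 25.3% in well-fed males. Of the underfed males, 4 were below the lowest and 1 was above the highest well-fed male. That highest value of 3214 CPM came from underfed replicate 8, a library of 50099 miRNA reads.

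miR-30a-3p, the opposite arm of miR-30a, was the least abundant member. It spanned 171.5 to 475.1 CPM among well-fed males (median 304.6) and 215.9 to 455.9 CPM among underfed males (median 295.2), with means of 311.2 ± 105.2 CPM and 317.0 ± 79.5 CPM (SD, n = 8 each). No underfed male was outside the range of the well-fed males.

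**Figure D1:**
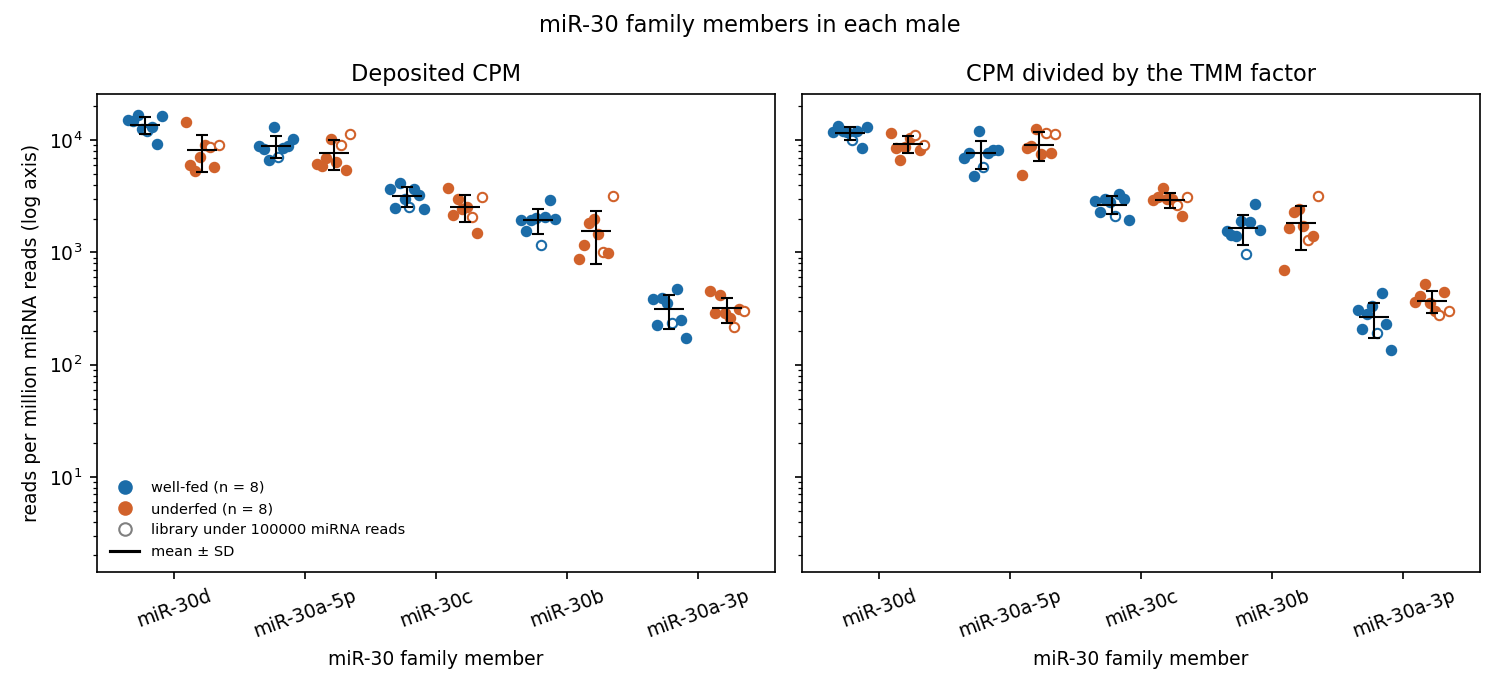
Level of each miR-30 member in each male, in CPM on a log axis, as deposited (left) and after division by the TMM factor of the library (right). Points are males (blue, well-fed; orange, underfed; open, libraries under 100000 miRNA reads) and bars show the mean ± SD of 8 males. The underfed miR-30d values sit below the well-fed ones on the left except for replicate 1 at 14479 CPM, and the gap is narrower on the right.

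The order of the levels, miR-30d, miR-30a-5p, miR-30c, miR-30b and miR-30a-3p, was tested within males, where both members of a pair come from the same library. All 10 pairs differed (exact permutation test over all sign flips of 16 males, two-sided, Benjamini-Hochberg over 10 pairs), with adjusted p of 0.0293 for miR-30d against miR-30a-5p, 6.78e-05 for miR-30c against miR-30b and 3.81e-05 for each of the other 8 pairs. The exact p behind the last value, 3.05e-05, is the smallest these flips can give. miR-30c exceeded miR-30b in 15 of 16 males. The lead of miR-30d over miR-30a-5p was the weakest step, a mean log2 ratio of 0.35 ± 0.57 (SD, n = 16), seen in 11 of 16 males. These were 7 of 8 well-fed but 4 of 8 underfed males. Within the underfed males alone miR-30d and miR-30a-5p did not differ beyond their spread (mean log2 ratio 0.07, exact permutation by sign flips, adjusted p = 0.773). Each of the remaining 9 pairs differed there too, in the same direction. Differences in ligation and amplification between sequences remain in such ratios between miRNAs.

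Together the 5 members made up 2.81% ± 0.303 (SD, n = 8) of the miRNA reads of well-fed males, and 2.03% ± 0.467 (SD, n = 8) of those of underfed males. The share was below the lowest well-fed share of 2.31% in 6 of 8 underfed males. How often other sets of miRNAs gave such a count was not computed. On deposited CPM, the scale of these shares, the median log2 fold change (underfed minus well-fed) was -0.33 over the members and -0.51 over the 244 miRNAs tested. Within the family, miR-30d took 48.9% ± 6.53 of the reads with the well-fed and 39.9% ± 8.47 with the underfed diet (SD, n = 8 each). miR-30a-5p took 31.7% ± 5.7 and 38.1% ± 7.03, in the same order of diets. The shares were 11.3% and 12.7% for miR-30c and 6.98% and 7.67% for miR-30b. For miR-30a-3p they were 1.11% ± 0.348 and 1.63% ± 0.514, with 4 of 8 underfed males above the highest well-fed male. In underfed replicate 1 the share of miR-30d was 56.4%, the highest of the 16 males.

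**Figure D2:**
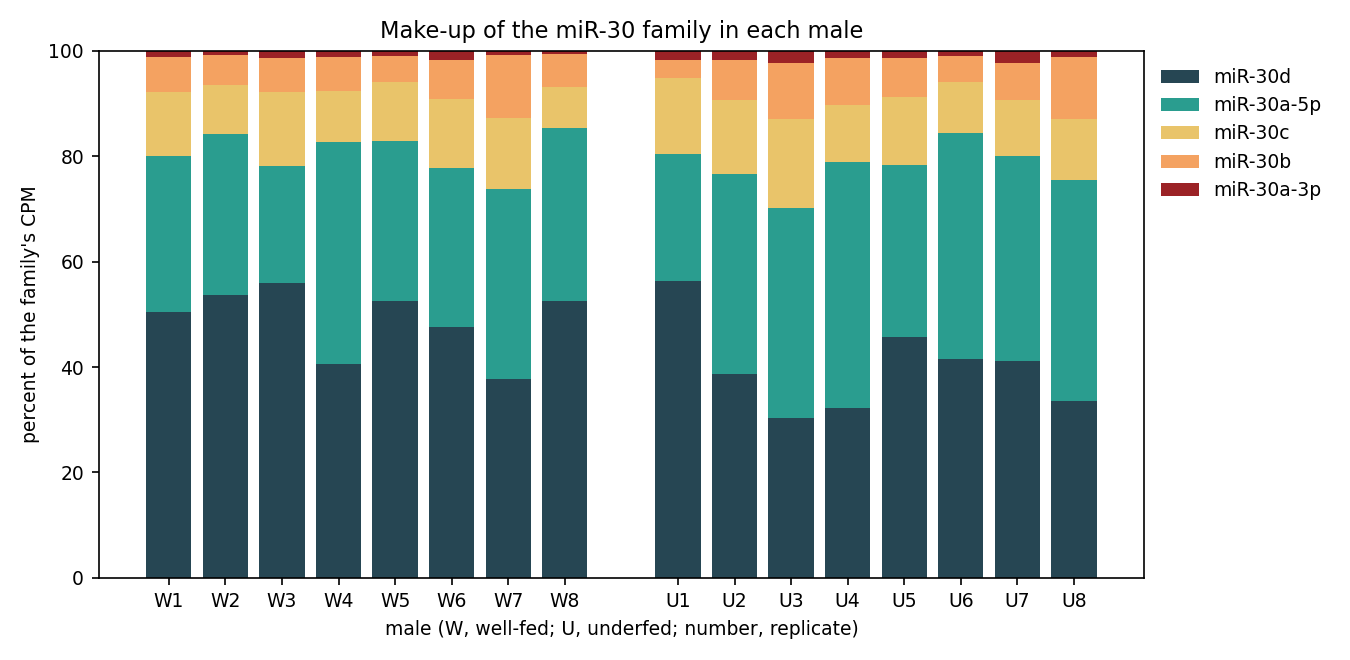
Share of each member in the summed CPM of the miR-30 family, in percent, with 1 bar per male (W, well-fed; U, underfed; the number is the replicate). miR-30d fills 37.8% to 56% of the well-fed bars and 30.3% to 56.4% of the underfed bars, where miR-30a-5p is often the larger segment.

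Levels were compared between diets on log2(CPM + 1) after division by a TMM factor, a value per library (trimmed mean of M values) that sets the trimmed mean log ratio of its miRNAs to a reference library at 0. The factors were 1.08 to 1.39 in well-fed and 0.698 to 1.26 in underfed males, so this scaling lowered all well-fed values and raised those of 6 of 8 underfed males. The factor of 1.26, inside the well-fed range, was that of underfed replicate 1. Its library held 288275 piRNA and 149142 miRNA reads, and every well-fed library also had more piRNA than miRNA reads. Each other underfed library had fewer piRNA than miRNA reads. The reason for this likeness was not tested. limma was fitted to the 244 miRNAs whose CPM exceeded 5 in 8 or more libraries, which all 5 members met, and a miRNA was called at a Benjamini-Hochberg FDR under 0.05 over the 244. Of the 5 members, 0 were called, while 15 of the 244 miRNAs were (6.15%), 9 higher (3.69%) and 6 lower (2.46%) with the underfed diet. When the fold of mean CPM also had to be under 0.67 or above 1.5, the counts were 0 of 5 members and 8 of the 244 miRNAs (3.28%). Before adjustment, p was under 0.05 for 2 of the 5 members and for 63 of the 244 miRNAs (25.8%). The median log2 fold change (underfed minus well-fed) was 0.15 over the members and -0.08 over the 244.

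Those 2 members, miR-30d and miR-30a-3p, differed in direction. miR-30d had a log2 fold change of -0.33 (SE 0.15, 95% interval -0.63 to -0.02, FDR 0.165, limma), lower in underfed males under all scalings tried except a joint one with piRNAs. On the TMM-scaled level its means were 11599 CPM (well-fed) and 9299 CPM (underfed), and 6 of 8 well-fed males were above the highest underfed male. The share of all miRNAs with such a separation was not computed. miR-30a-3p had a log2 fold change of 0.54 (SE 0.24, 95% interval 0.03 to 1.05, FDR 0.17, limma), and its scaled means were 264.7 and 372.2 CPM. Its log2 fold change was above 0 under all 4 scalings given next, but on deposited CPM it was only 0.06 (FDR 0.871, limma). The scaled diets overlapped, with 2 of 8 underfed males above the highest well-fed male.

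The other members had intervals that reached from lower to higher levels in underfed males. The log2 fold change was 0.24 for miR-30a-5p (SE 0.20, 95% interval -0.18 to 0.66, FDR 0.464), 0.15 for miR-30c (SE 0.15, -0.17 to 0.47, FDR 0.543) and 0.07 for miR-30b (SE 0.26, -0.47 to 0.60, FDR 0.878, all limma).

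**Figure D3:**
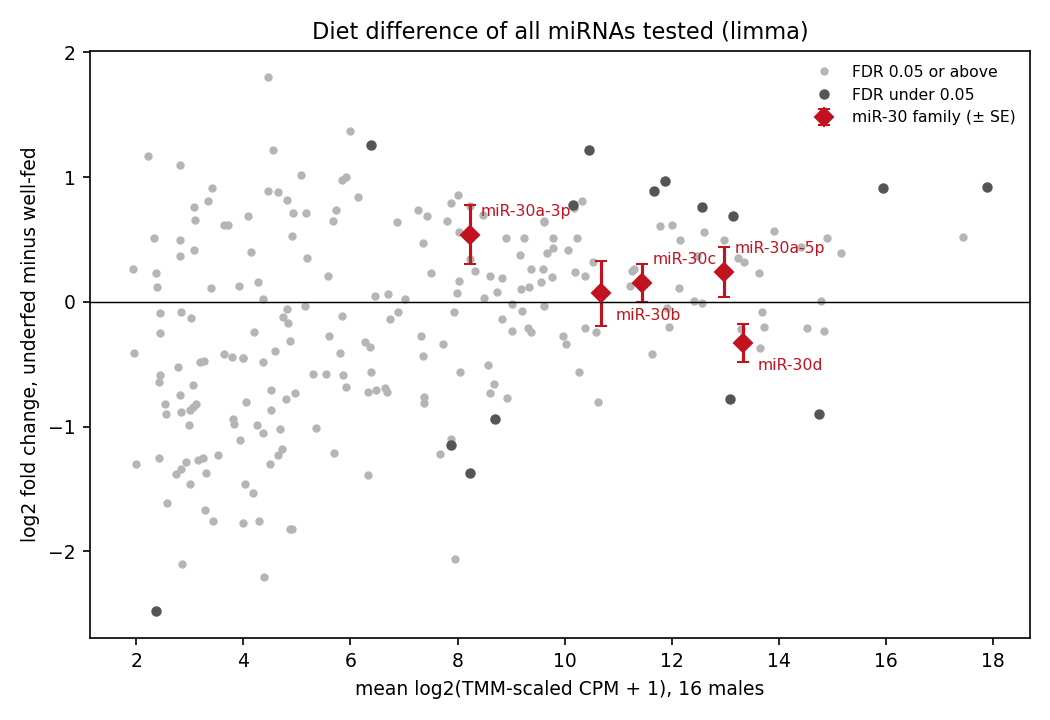
Log2 fold change (underfed minus well-fed, limma after TMM scaling) of the 244 miRNAs tested against their mean log2(TMM-scaled CPM + 1) over 16 males. Red diamonds with SE bars are the miR-30 members, dark points the 15 miRNAs with FDR under 0.05 and pale points the rest; the members lie between -0.33 (miR-30d) and 0.54 (miR-30a-3p), with none called.

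The scaling between libraries shifted all miRNAs together, and with them the sign of several members. Over the 244 miRNAs the median log2 fold change came to -0.51 on CPM as deposited, -0.19 with median-of-ratios factors, -0.08 with TMM and 0.81 when miRNAs and piRNAs were normalized jointly. miR-30d was at -0.80, -0.47, -0.33 and 0.63 under these scalings, in that order. It was below the median of all miRNAs under each of them, by 0.18 to 0.29 on the log2 scale. A factor per library moves all its miRNAs alike, so this distance is nearly fixed and the scalings are not separate observations of it. By definition, as many miRNAs lie below the median as above it. On deposited CPM it was called lower in underfed males (FDR 0.0095, limma), and of the 39 miRNAs called among the 244 (16%), 38 were lower and 1 was higher. Under joint normalization it was called higher (FDR 0.0445), as were all 85 miRNAs called among the 244 (34.8%). Over 27 alternatives its FDR ranged from 0.0095 to 0.268.

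The other 4 members were above the median of all miRNAs under each of the 4 scalings, which again are not separate observations. miR-30a-3p was at 0.06, 0.39, 0.54 and 1.48, and it was the member farthest above the median, by 0.57 to 0.67. miR-30a-5p was at -0.24, 0.10, 0.24 and 1.19, lower in underfed males only on deposited CPM. miR-30c followed the same pattern with -0.33, 0.01, 0.15 and 1.10. miR-30b was at -0.41, -0.08, 0.07 and 1.02 and was thus lower in underfed males on deposited CPM and with median-of-ratios factors. Joint normalization called miR-30a-3p, miR-30a-5p and miR-30c higher as well (FDR 0.00477, 0.00867 and 0.00957, limma), and not miR-30b (FDR 0.0552). Over the 27 alternatives the FDR ranged from 0.00477 to 0.871 for miR-30a-3p, from 0.00867 to 0.875 for miR-30a-5p, from 0.00957 to 0.978 for miR-30c and from 0.0552 to 0.985 for miR-30b.

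**Figure D4:**
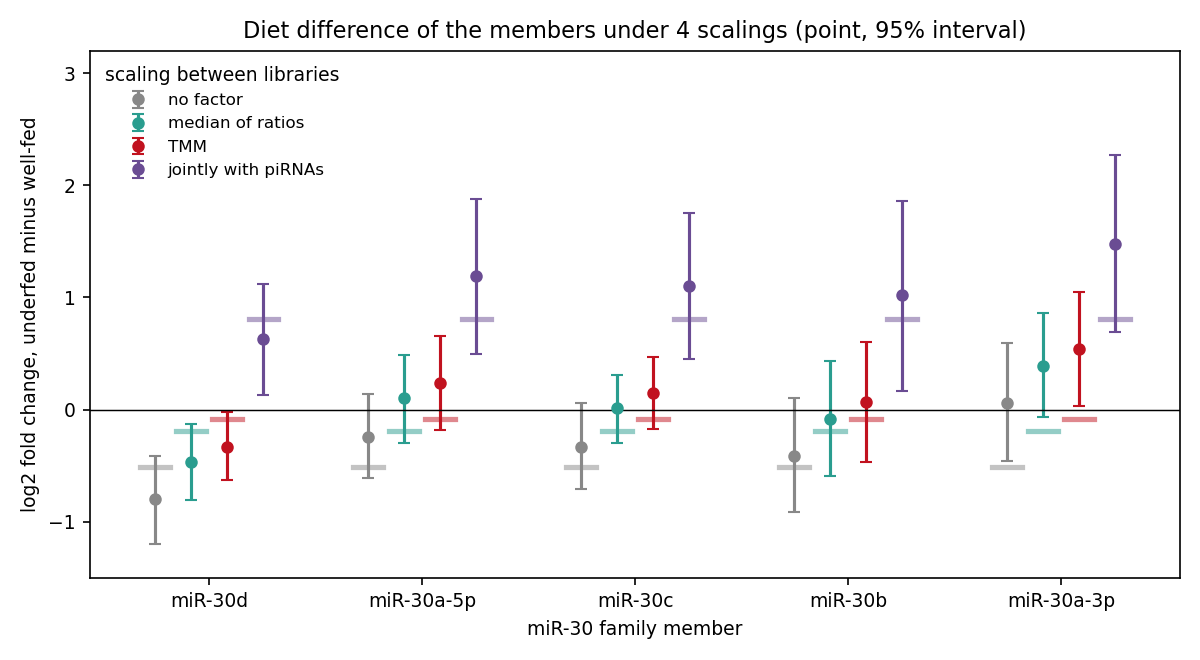
Log2 fold change (underfed minus well-fed, limma) of each member with its 95% interval under 4 scalings between libraries; the short pale bars mark the median of the 244 miRNAs under the same scaling. miR-30d lies below that median under all 4 scalings and the other members above it, at distances that a factor per library hardly changes. miR-30d is above 0 under joint scaling, and miR-30a-5p and miR-30c are below 0 without a factor. miR-30b is below 0 without a factor and with median-of-ratios factors.

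A ratio of 2 members within a male does not depend on the scaling between libraries, apart from the pseudocount of 1 CPM. Each difference given is one of means, and its interval is a rank-based one for the shift between diets. The 10 pairs of members were compared between diets by an exact permutation test over all arrangements of the diets (two-sided), in which 4 pairs had p under 0.05 and 0 passed after Benjamini-Hochberg adjustment over the 10 pairs. Of the 4 pairs, 3 had miR-30d as the first member. These 3 share the same miR-30d values and are not separate results, and the share over pairs of other miRNAs was not computed. The ratio of miR-30d to miR-30a-3p was lower in underfed males by 0.87 on the log2 scale (difference -0.87, 95% interval -1.47 to -0.22, exact p = 0.00606, adjusted 0.0606), and 4 of 8 underfed males were below the lowest well-fed male. The adjusted p of this pair ranged from 0.0218 to 0.182 over its 21 alternatives and was under 0.05 when well-fed replicate 6, well-fed replicate 7, underfed replicate 1 or underfed replicate 6 was left out. Against miR-30c the difference of miR-30d was -0.48 (-0.81 to -0.04, exact p = 0.0275, adjusted 0.0917). Its mean ratio to miR-30c was 4.52 ± 1.25 among well-fed and 3.24 ± 0.796 among underfed males (SD, n = 8 each), and the adjusted p passed only without well-fed replicate 7 (0.0389, range 0.0389 to 0.234 over 21 alternatives). Against its genomic neighbour miR-30b the difference was -0.39, with an interval of -1.18 to 0.18 (exact p = 0.288, adjusted 0.481).

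The ratio of the 2 most abundant members was lower on average in underfed males, but did not pass adjustment. The level of miR-30d over that of miR-30a-5p was 0.962 to 2.52 in well-fed males (mean 1.61 ± 0.48, SD, n = 8) and 0.691 to 2.35 in underfed males (mean 1.13 ± 0.542, SD, n = 8). The highest underfed value belonged to replicate 1, and 3 of 8 underfed males were below the lowest well-fed male. The log2 difference was -0.57 (95% interval -1.13 to -0.10, exact p = 0.0449, adjusted 0.112). Without underfed replicate 1 it was -0.73 with an adjusted p of 0.0357 (exact permutation test), against a range of 0.0357 to 0.271 over 21 alternatives. In the 13 libraries above 100000 miRNA reads it was -0.46 (exact p = 0.163, adjusted 0.271).

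The arms of miR-30a were compared in the same way. The 5p arm exceeded the 3p arm in all 16 males, by 17 to 59.8 times in well-fed (median 32.6) and by 13.5 to 41.8 times in underfed males (median 22.6). The mean ratio was 32.1 ± 13.9 and 26 ± 10.9 (SD, n = 8 each). The diets did not differ beyond the spread between males (log2 difference -0.30, 95% interval -1.01 to 0.26, exact p = 0.338, adjusted 0.483), and the interval includes shifts toward either arm. In the 13 libraries above 100000 miRNA reads the difference was -0.54 (exact p = 0.129, adjusted 0.258). The lowest ratio of 13.5 was that of underfed replicate 1, and the highest of 59.8 that of well-fed replicate 8.

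The pairs without miR-30d gave 1 further p under 0.05. The ratio of miR-30c to miR-30a-3p differed by -0.39 (95% interval -0.67 to -0.05, exact p = 0.0274, adjusted 0.0917) and passed only without well-fed replicate 6 (adjusted p 0.0474, range 0.0474 to 0.189 over 21 alternatives). The difference was 0.09 (-0.41 to 0.64) for miR-30a-5p over miR-30c, 0.17 (-0.25 to 0.62) for miR-30a-5p over miR-30b, 0.08 (-0.39 to 0.49) for miR-30c over miR-30b and -0.47 (-1.30 to 0.17) for miR-30b over miR-30a-3p. These 4 pairs had exact p of 0.169 to 0.766.

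**Figure D5:**
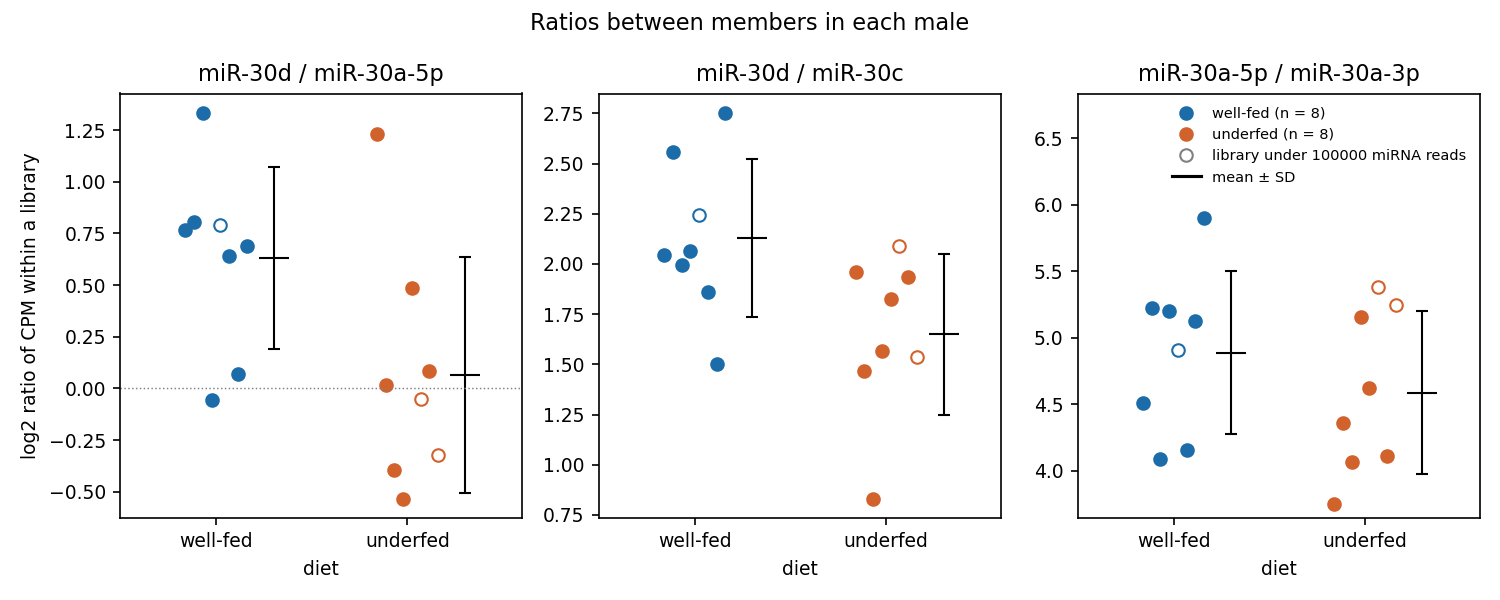
Log2 ratio of the CPM of 2 members within each male, for miR-30d over miR-30a-5p, miR-30d over miR-30c and the 5p over the 3p arm of miR-30a. Points are males (open, libraries under 100000 miRNA reads), bars the mean ± SD of 8 males, and each panel has its own axis range; underfed replicate 1 lies at 1.23 in the first panel, apart from the other underfed males.

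Over the males, the members did not vary as a block. The deviations of log2(TMM-scaled CPM + 1) from the diet means were correlated over 16 males, as a description only, since members share each library and its scaling factor. miR-30a-5p varied with miR-30b (r = 0.68, rho = 0.61) and miR-30c with miR-30a-3p (r = 0.65, rho = 0.57). For miR-30c and miR-30b r was lower, at 0.44, with a rho of 0.61. The neighbours miR-30d and miR-30b had r = -0.50 (rho = -0.44), and the arms of miR-30a had r = -0.04 (rho = -0.12). miR-30d had a negative r with each of the other members, from -0.13 to -0.50.

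A pair of predicted miRNAs, which the authors matched to homologues of miR-30e and miR-30f, were not counted as members. The miR-30e homologue averaged 2716 ± 699.5 CPM with the well-fed and 2546 ± 1480 CPM with the underfed diet (SD, n = 8 each), near the level of miR-30c. Its log2 fold change was 0.25 (SE 0.27, FDR 0.558, limma). The miR-30f homologue averaged 201.7 ± 43.5 and 181.1 ± 85.6 CPM (SD, n = 8 each), with a log2 fold change of 0.23 (SE 0.25, FDR 0.566, limma). After TMM scaling both values were above the median of all miRNAs, as were those of the 4 members other than miR-30d.

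Among the 239 other miRNAs tested, the likeness to the mean deviation of the 5 members over 16 males was highest for oar-miR-17-5p (r = 0.79, rho = 0.79), followed by the predicted miRNAs that the authors matched to miR-450a (r = 0.74, rho = 0.64) and miR-15a-5p (r = 0.74, rho = 0.72). Without well-fed replicate 5 and underfed replicate 1, which were farthest from the median, r was 0.73, 0.61 and 0.58, in that order. In the 13 deeper libraries oar-miR-17-5p was still ranked 1 (r = 0.81), and the others were ranked 9 and 10. The miR-30e homologue ranked 15 (r = 0.64, rho = 0.65) and the miR-30f homologue 144 (r = 0.10, rho = 0.19). Their order turned without those 2 males, with r = 0.43 for the miR-30e and 0.59 for the miR-30f homologue, and in the deeper libraries they ranked 32 (r = 0.59) and 95 (r = 0.27). These values were selected as the highest and share the libraries and their factors.

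In a pair of families of like kind, the median diet difference was higher, while the ranges overlapped that of the miR-30 family. After TMM the log2 fold changes were -0.02 to 0.50 in let-7, 0.50 to 0.89 in miR-29 and -0.33 to 0.54 in the miR-30 family. The median log2 fold change after TMM was 0.39 over the 7 members of let-7, with 0 called and 6 higher in underfed males, and 0.65 over the 3 members of miR-29, with 1 called. On deposited CPM these medians were -0.09 and 0.18, against -0.33 for the miR-30 family, and under joint normalization 1.34 and 1.58 against 1.10. No test compared the families.

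Marker miRNAs of cell types in testis were set beside the members, and of the 4 lists only that of germ cells held called miRNAs. The 3 predicted miRNAs matched by the authors to miR-34b-5p, miR-34c-5p and miR-449a mark meiotic and later germ cells. They were read in all 16 males, so the libraries carried the germ cell markers of the labelled tissue. Their summed level was 47497 to 71079 CPM among well-fed males (median 64054) and 10978 to 58155 CPM among underfed males (median 21506), and 2 of the 3 were called lower in underfed males (limma, FDR under 0.05). In underfed replicate 1, the male with the high miR-30d, the sum was 44629 CPM. That was below the lowest well-fed sum of 47497 CPM, and another underfed male had the highest underfed sum of 58155 CPM. The smooth muscle list (2 of 3 listed) was at 153985 to 210989 CPM (median 180831) and 138660 to 215633 CPM (median 188009), well-fed first. The blood list (3 of 4 listed) was at 3293 to 9150 CPM (median 7270) and 2595 to 9186 CPM (median 4131), and the epithelial list (4 of 5 listed) at 25.8 to 174.8 CPM (median 38.9) and 23.3 to 179.9 CPM (median 74.2). In these 3 lists 0 miRNAs were called. The entries oar-miR-145, oar-miR-451 and oar-miR-200c were not among the miRNAs listed. miR-145 was represented by the predicted miRNA that the authors matched to miR-145-5p. Levels of oar-miR-200b and the homologue of miR-141 were at 0 in some libraries of each diet. The upper ends of the epithelial ranges were near the floor of the shallowest library (174.79 CPM, well-fed replicate 5), so this list rests on few reads in shallow libraries. The part of these cell types in the values of the miR-30 members was not tested.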

How the data were processed

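The authors trimmed the reads, removed those matching other non-coding RNAs, mapped reads of 18 to 25 nt to miRBase (release 20) and predicted further miRNAs on OAR3.1. The deposited signal is CPM made by the authors. For it, miRNA reads were divided by the miRNA total of the library and piRNA reads (26 to 32 nt) by the piRNA total. CASAVA 1.8 is named in the submitters' processing notes. Diets and replicate numbers came from the labels, and nothing pairs the males.

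Low miRNA values were whole multiples of 1 read in 93.5% to 98.5% of cases per library (tolerance 0.02 reads), which gave the reads behind each value. The 56 pairs of libraries within a diet all differed by more than sampling noise. TMM factors (30% of log ratios and 5% of abundances trimmed) were computed by an own implementation, and log2(CPM + 1) was compared with limma 3.58.1 (trend, R 4.3.3) and Benjamini-Hochberg adjustment over 244 miRNAs. Fold changes on this scale understate the change of low miRNAs. Ratios and the order of levels were tested by exact permutation (Python 3.11.15, scipy 1.17.1). The scripts for TMM scaling and the limma comparison were tested on simulated data.

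The named miRNAs are the 5 members, the predicted homologues of miR-30e and miR-30f, the 3 others most like the members' mean deviation, and the marker lists; let-7 and miR-29 are given by counts. Members and lists were chosen with earlier results of these data known. Alternatives covered scaling, filter, pseudocount, voom, robust estimation, a replicate block, deeper libraries and each male left out; the setting that leaves out underfed replicate 1 together with the libraries under 100000 miRNA reads was added after seeing the data.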

Additional observations from a re-analysis of the deposited data

Results flagged for a closer look

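Of 30 groups of 8 values (CPM of the 5 members and log2 ratios of the 10 pairs, in each diet), 3 had a male apart from the others, with a gap to the nearest male, relative to the range of the group, above Dixon's 95% critical value. Chance gives about 1 in 20 such groups. The miR-30d level of underfed replicate 1 was 14479 CPM, and the next highest underfed male had 9102 CPM. The miR-30b level of underfed replicate 8 was 3214 CPM in a library of 50099 miRNA reads, and the next had 1976 CPM. The log2 ratio of miR-30d to miR-30b in well-fed replicate 7 was 1.67, and the next lowest was 2.63.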

How the results depend on the processing

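The number of called miRNAs (15 with all males after TMM) was 39 without TMM factors, 85 under joint normalization with piRNAs, 47 with voom, 43 in the 13 libraries above 100000 miRNA reads, 8 when a fold of mean CPM under 0.67 or above 1.5 was also required, and 91 without underfed replicate 1 and the 3 shallow libraries, a setting chosen after seeing the data. In that setting 2 members were called, miR-30d (-0.47, FDR 0.0335) and miR-30a-3p (0.62, FDR 0.0489, limma). When males were left out singly, the count was 4 (without well-fed replicate 2 or 8) to 44 (without underfed replicate 1, and 25 without underfed replicate 8), and 0 members were called in these 16 fits. The number of member ratios passing adjustment (0) was 0 to 2 with each male left out, 2 without well-fed replicate 6, well-fed replicate 7 or underfed replicate 1, and 1 without underfed replicate 6.

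Directions turned for miR-30d under joint normalization (0.63), for miR-30a-5p (-0.24) and miR-30c (-0.33) without TMM factors, and for miR-30b without TMM factors (-0.41), with median-of-ratios factors (-0.08), in the deeper libraries (-0.13) and with males left out (-0.08 to 0.25 over 16 fits). The ratio of miR-30a-5p to miR-30c turned in the deeper libraries (-0.06) and without well-fed replicate 3 (-0.03, range -0.03 to 0.21 over males left out), and that of miR-30c to miR-30b without underfed replicate 1 (-0.10, range -0.10 to 0.20). The cause was not tested.

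Same-numbered males correlated at 0.0472 on average (-0.18 to 0.277, 3 of 8 pairs over 0.1) and males with different numbers at 0.00582, so the numbers were not taken to pair the males, and 2 of 8 well-fed males correlated best with their own number. With the replicate number as a block, 15 miRNAs and 0 members were called, and 0 member ratios passed. Other pseudocounts, no filter and robust estimation gave 15 or 16 called miRNAs and 0 members. miR-30a-3p rests on as few as 4 reads in the shallowest library.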
